A study of Rattus norvegicus with 24 samples.

Results

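A set of 43 genes had lower RNA levels in the left ventricle at 1 day and at 3 days after spinal cord transection and a mean level close to that of the sham group at 12 weeks. The genes were chosen by those differences. Counts were scaled to CPM (counts per 1000000 counts of the library in the deposited table), and the mean of log2(CPM + 0.5) was taken in each group. A gene belongs to the set when its mean CPM over all 24 libraries is at least 2, its group means at 1 day and at 3 days both lie at least 0.7 below the sham mean on this log2 scale, and its 12 week mean lies within 0.3 of the sham mean. Of the 23098 gene IDs in the deposited table, a total of 11567 reached the CPM minimum, and 43 met all conditions. The lower values at 1 and 3 days and the 12 week values near sham are therefore what the genes were selected for, and they are given below as a description. Calls from tests of these contrasts are printed further down, and no support is drawn from them.

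The tissue was the free wall of the left ventricle at mid-ventricular level from male Wistar rats, in 4 groups of 6 libraries. The sham rats had only the dura opened at a high thoracic level, with the cord left intact, and their tissue was collected at 7 days. In the other groups the cord was fully transected at that level (a spinal cord injury, SCI), and collection followed 1 day, 3 days or 12 weeks after surgery. No sham group was matched to any of these times, so the injury cannot be told apart from the time since surgery, and at 12 weeks from the older age of the rats. The labels give no age and no agent. They do not state that the 6 libraries of a group are 6 rats, and should a rat have given more than 1 library, the p-values would rest partly on technical spread.

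The sympathetic nerves that speed the heart are controlled by preganglionic cells in the upper thoracic cord, which receive their drive from the brainstem through descending pathways. A complete cut high in the thoracic cord interrupts this drive, while the vagus nerve, which slows the heart, does not run in the cord and is spared. In the first days after such an injury the rats are also recovering from major surgery, and later the ventricle is known to lose mass under its lighter load.

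The deposited table identifies genes only by Ensembl ID, and of the 23098 IDs 0 could be matched to a symbol in the gene table used for names. The 43 genes are therefore described by rank, from rank 1 for the gene with the lowest mean of the 1 day and 3 day differences to rank 43. Only ranks 1 and 2 are also printed by ID. No function is given for any of them, markers of heart cells and of other cell types could not be looked up, and the labelled tissue was not checked against them. Each of the 43 IDs stood on 1 line of the table. In whole tissue, fewer cells of a type and less RNA per cell cannot be told apart for any gene below.

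Library totals in the deposited table, which is named as protein-coding, ran from 15002476 to 70340174 counts. The sham and 3 day libraries carry the library numbers 57 to 68 in the labels, and the 1 day and 12 week libraries the numbers 77 to 88. The labels do not say what these 2 runs of numbers stand for. The 3 day and sham groups can thus be compared within a run, as can the 1 day and 12 week groups. Comparisons across runs cannot be told apart from a difference between the runs. Within a run each group also holds its own block of numbers. These are 57 to 62 at 3 days, 63 to 68 in sham, 77 to 82 at 1 day and 83 to 88 at 12 weeks. Any effect of number order inside a run therefore cannot be told apart from the group either.

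The set covered a wide span of RNA levels. The mean over 24 libraries lay between 2.09 and 239 CPM with a median of 17.3 CPM, beside a median of 19.8 CPM over the 11567 genes above the minimum. There were 19 members with a mean under 10 CPM, 16 from 10 to 50 CPM and 8 over 50 CPM. All 43 passed the filter on low counts used for testing, and 3 had a library with fewer than 10 counts, the lowest value being 7 counts. CPM values do not correct for gene length, so a level can be compared between groups for 1 gene and not between genes.

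The lowest mean of the acute differences was that of ENSRNOG00000023257, at rank 1, which was also the lowest at 1 day, while rank 2 was the lowest at 3 days. In sham its level was 322 CPM in the lowest library, 380 in the median and 522 in the highest. At 1 day the lowest, median and highest libraries had 70.2, 94.8 and 136 CPM, and at 3 days 78.3, 113 and 202 CPM. Every acute library thus lay below every sham library. At 12 weeks the values were 230, 312 and 613 CPM, and 4 of the 6 libraries were below the lowest sham library while 1 was above the highest. The group means were 390 ± 71.4 CPM in sham, 96.7 ± 24.3 at 1 day, 122 ± 43.3 at 3 days and 349 ± 134 at 12 weeks (SD, n = 6). On the log2(CPM + 0.5) scale the differences from sham were -2.02, -1.71 and -0.21 in order of time.

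At rank 2, ENSRNOG00000014856 had 260, 271 and 373 CPM in the lowest, median and highest sham libraries. At 1 day it had 59.1, 90.7 and 107 CPM, and at 3 days 50.8, 81.0 and 105 CPM. The acute libraries again did not overlap with sham. The 12 week libraries ran from 162 through a median of 281 to 356 CPM, with 4 of 6 inside the sham range and 2 below it. Its differences from sham were -1.75 at 1 day, -1.87 at 3 days and -0.16 at 12 weeks on the same log2 scale.

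**Figure D1:**
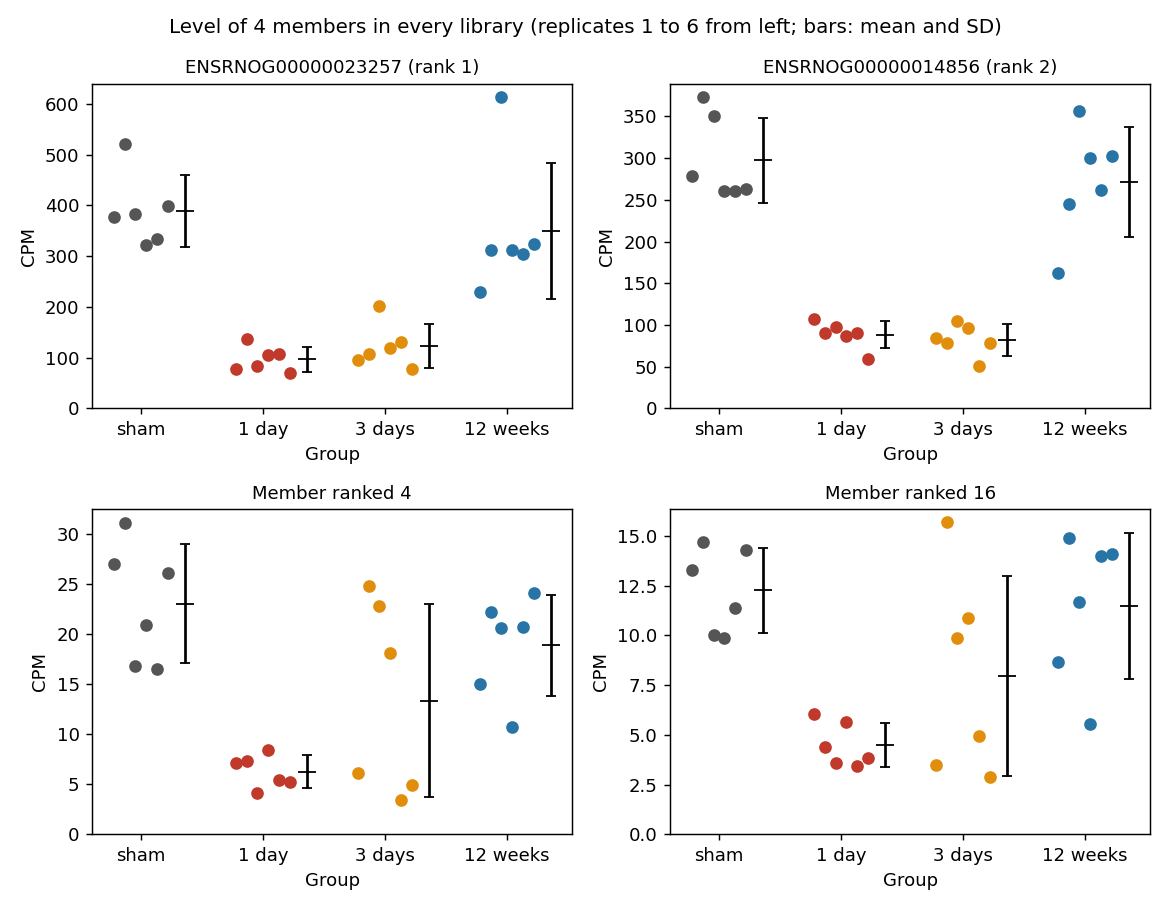
Level of 4 members in CPM (vertical axes, each starting at 0) in the 6 libraries of each group, with points for replicates 1 to 6 from left to right and bars for the group mean and SD. The members at ranks 1 and 2 have no acute library inside the sham range, while those at ranks 4 and 16 have 3 high and 3 low libraries at 3 days.

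Besides those at ranks 1 and 2, 3 members had a mean over 100 CPM. Rank 20 had 222 to 344 CPM in sham with a median of 264 CPM. It had 110 to 150 CPM at 1 day (median 114), 94.6 to 240 CPM at 3 days (median 144) and 176 to 294 CPM at 12 weeks (median 237). Rank 22 had 189 to 345 CPM in sham (median 292), 90.7 to 150 CPM at 1 day (median 115), 129 to 212 CPM at 3 days (median 139) and 196 to 371 CPM at 12 weeks (median 273). For both, no 1 day library reached the sham range and a single 3 day library did. Rank 25 was the most spread of the 3, with 144 to 360 CPM in sham (median 227), 75 to 156 CPM at 1 day (median 111), 83.2 to 172 CPM at 3 days (median 112) and 124 to 477 CPM at 12 weeks (median 196). In it 2 libraries at each acute time lay inside the sham range.

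Across the set, the 1 day differences from sham ran from -2.02 to -0.73 with a median of -0.99 on the log2(CPM + 0.5) scale, and the 3 day differences from -1.87 to -0.70 with a median of -0.95. The corresponding medians over the 11567 genes were 0.01 and 0.00. A difference of -1 or lower was seen in 21 members at 1 day, in 20 at 3 days and in 16 at both times. On this scale -1 is a 2-fold lower CPM + 0.5. The fold change in CPM itself is larger than that, most so in members of low level. At 12 weeks the differences ran from -0.29 to 0.26 with a median of -0.08, and 30 of the 43 were below 0.

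Because the selection used group means, overlap between libraries was counted member by member. In 36 of 43 members every 1 day library lay below every sham library, and in 31 every 3 day library did. The same was true of 8.2% of the 11567 genes at 1 day and 4.69% at 3 days. In the fit over all 15065 tested genes (edgeR's quasi-likelihood test, Benjamini-Hochberg adjusted p under 0.05), 42 members were called lower at 1 day and 37 at 3 days, where 12.1% and 8.59% of all tested genes were called lower. These contrasts chose the members, so nothing is read from the counts except which members did not pass. At 1 day this was the member at rank 33, and at 3 days those at ranks 4, 15, 16, 27, 32 and 33.

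The members were part of a larger group of genes lowered acutely. A total of 141 genes above the CPM minimum were at least 0.7 below sham at both acute times. At 12 weeks 82 of them were 0.3 or more below sham, 16 were 0.3 or more above it, and the 43 members lay between. The same sham libraries enter the acute and the 12 week differences, so a sham mean high by chance lowers them together. The split is thus partly built in, and the share of all genes in each class is not given here. The nearest values on either side show that the borders fall within a continuum. The 12 week difference was -0.291, -0.291 and -0.288 in the members nearest to the limit and -0.305, -0.312 and -0.315 in the nearest genes outside it. At 3 days the nearest members had -0.703, -0.75 and -0.753 and the nearest genes outside -0.698, -0.695 and -0.691. At 1 day they were -0.726, -0.733 and -0.735 inside and -0.682, -0.669 and -0.66 outside. The least abundant members had mean levels of 2.09, 2.17 and 2.24 CPM, and the nearest genes under the minimum 1.88, 1.64 and 1.23 CPM. The 3 day limit alone kept out 41 genes, the 1 day limit alone 22, and the CPM minimum alone 8. The rule with its signs turned, which takes genes transiently higher than sham, gave 37 genes.

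**Figure D2:**
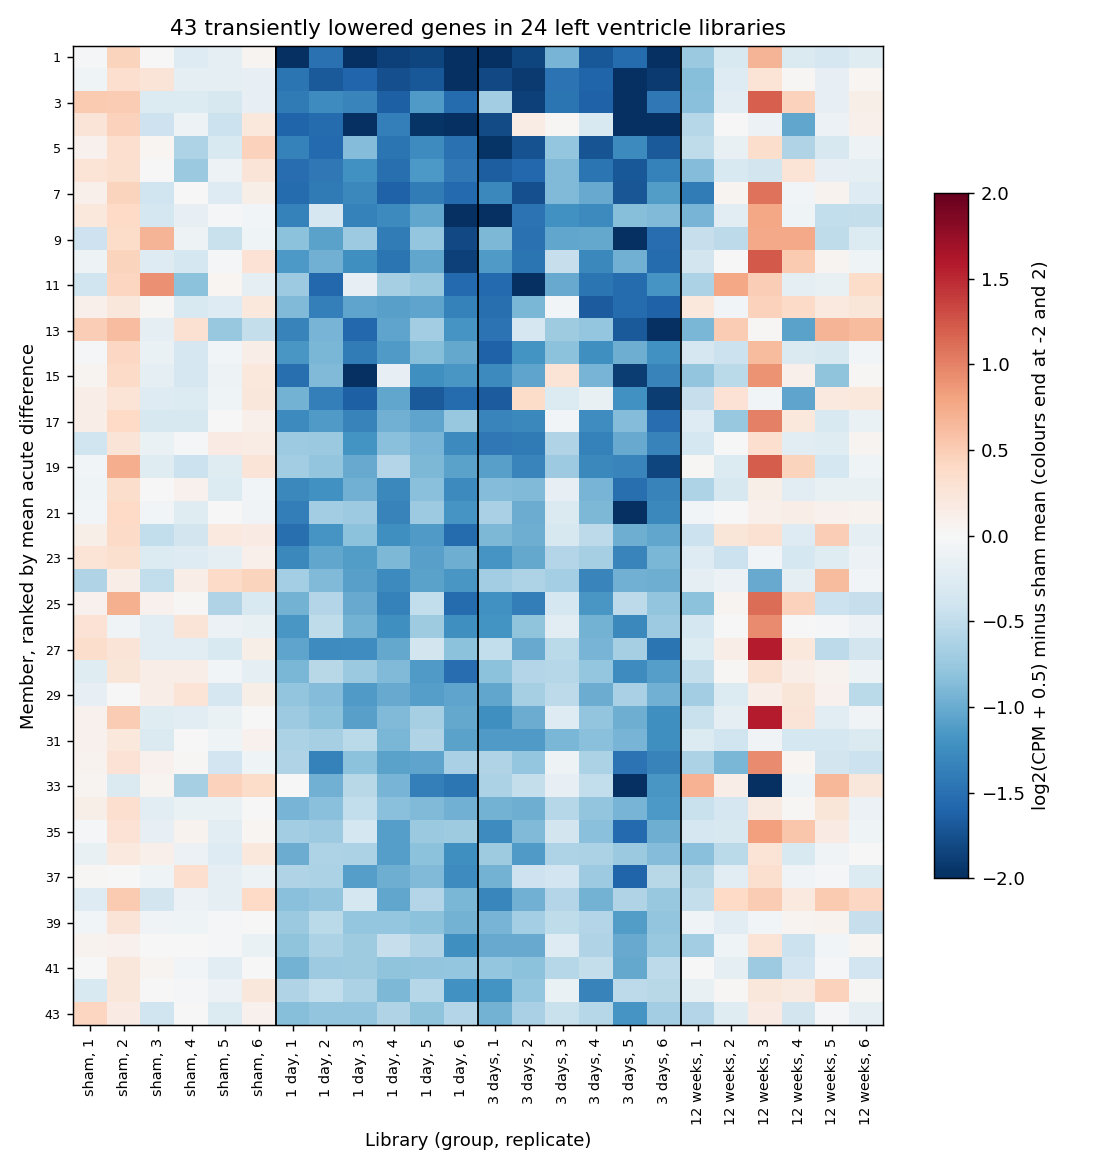
Log2(CPM + 0.5) minus the sham mean (colour, with blue below and red above sham) for the 43 members (rows, by rank) in the 24 libraries (columns, by group and replicate). The 1 day and 3 day columns are blue in nearly all rows, and within the 12 week block the column of replicate 3 is red in many rows while that of replicate 1 is pale blue in most.

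The 3 day and 1 day groups were also compared directly. The rule limits from both sides which genes enter this comparison, since both means had to lie at least 0.7 below sham. The 41 genes kept out by the 3 day limit alone and the 22 kept out by the 1 day limit alone are missing from it. The values are therefore a description of genes that were low at both times, and they do not show whether acutely lowered genes at large had begun to move. By edgeR's quasi-likelihood test 0 of 43 members were called between the 2 times (lowest adjusted p = 0.0824), where 2.74% of the 15065 genes were called, and nothing is read from that count. At an unadjusted p under 0.05 there were 5 members, beside 17.7% of all tested genes. DESeq2 called 0 members, where it called 817 genes over all, against 413 by edgeR. The log2 fold changes of the members ran from -0.65 to 1.11 with a median of 0.09, beside a median of 0.01 over all tested genes. By group means of log2(CPM + 0.5), 22 members were lower at 3 days than at 1 day and 21 higher. A p that misses the threshold does not show equal levels. The 95% interval of the fold change lay wholly between -0.7 and 0.7 for 25 members, with a median reach of 0.47 to either side, while for the other 18 it reached a difference as large as the one that defines the set. Time and run of library numbers cannot be told apart in this comparison.

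For the member at rank 1 the log2 fold change from 1 day to 3 days was 0.35 (SE 0.232), and for that at rank 2 it was -0.09 (SE 0.176). The 5 members with an unadjusted p under 0.05 divided into 3 with higher and 2 with lower values at 3 days. For rank 22 the test gave a log2 fold change of 0.47 (SE 0.167). Rank 31 had 2.66 to 4.07 CPM at 1 day and 2.35 to 3.21 CPM at 3 days, and 4.96 to 7.2 CPM in sham. Its log2 fold change from 1 to 3 days was -0.33 (SE 0.126). Rank 11 had 3.9 to 11.2 CPM at 1 day and 2.7 to 6 CPM at 3 days against 6.94 to 24.3 CPM in sham. At 1 day 4 of its libraries lay inside the sham range and at 3 days none did, with a log2 fold change of -0.65 (SE 0.296).

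The remaining members of these 5, at ranks 4 and 16, had higher values at 3 days through some libraries and not others. Rank 4 had 16.5 to 31.1 CPM in sham and 4.09 to 8.42 CPM at 1 day. At 3 days it had 6.15, 24.8, 22.8, 18.1, 3.4 and 4.9 CPM in replicates 1 to 6. Replicates 2, 3 and 4 thus lay inside the sham range and the other 3 in or below the range of 1 day. Rank 16 had 9.88 to 14.7 CPM in sham and 3.43 to 6.04 CPM at 1 day, and at 3 days 3.5, 15.7, 9.89, 10.9, 4.95 and 2.89 CPM in replicates 1 to 6. The same replicates 2, 3 and 4 were inside or above its sham range. Their log2 fold changes from 1 to 3 days were 1.11 (SE 0.349) and 0.85 (SE 0.305). Among the settings tried, the first was called only when 3 day replicate 5 was left out (1.29, edgeR adjusted p = 0.024) or replicate 6 (1.29, adjusted p = 0.0421). Of all 903 pairs of members, these 2 moved most closely together from library to library, with r = 0.88 and rho = 0.90 over 24 libraries after each group's mean was subtracted. This is a description of genes that share libraries and were singled out after their values were seen. If the 2 genes resemble each other in sequence, shared reads could add to it, and this was not tested.

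**Figure D3:**
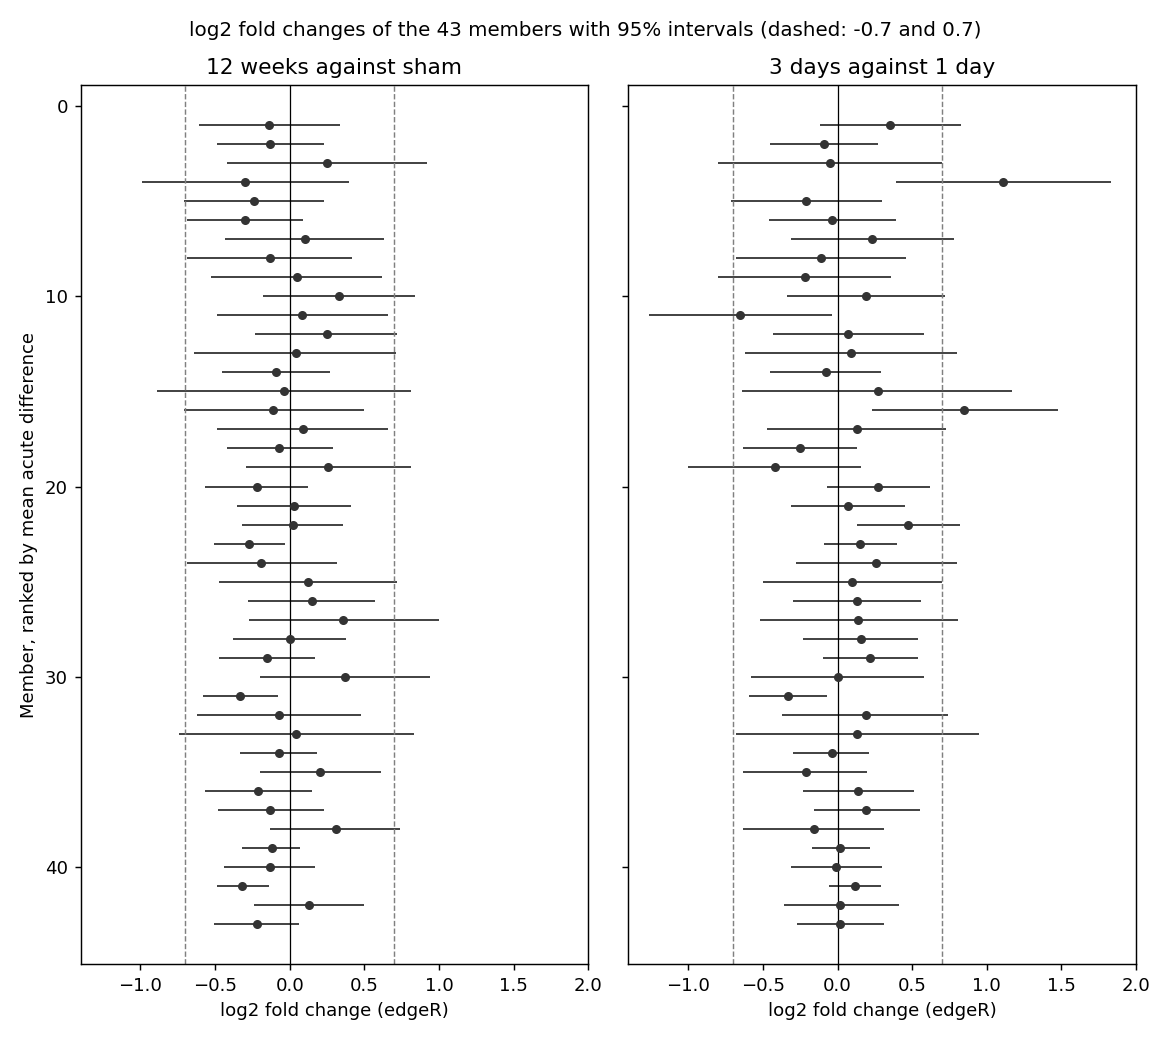
Log2 fold changes from the edgeR fit (horizontal axes) with 95% intervals for the 43 members (vertical axis, by rank), at left for 12 weeks against sham and at right for 3 days against 1 day, with dashed lines at -0.7 and 0.7. At left 40 of the 43 intervals hold 0, as the choice of members favours, and at right the members at ranks 4 and 16 lie farthest to the right.

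At 12 weeks a mean within 0.3 of sham is part of the definition, so the intervals below are centred near 0 by choice. Their widths rest on a spread fitted over all 24 libraries and do not measure how closely the 12 week libraries lie together. The interval of the 12 week fold change against sham from the edgeR fit lay wholly between -0.7 and 0.7 for 29 of the 43 members, with a median reach of 0.43 to either side. It reached -0.7 or lower for 5 members and 0.7 or higher for 11, with 2 of these in both counts. One member, at rank 41, was called lower than sham at 12 weeks in spite of the limit, where 22.1% of all tested genes were called in either direction. Its levels were 13.4 to 18.2 CPM in sham, 7.86 to 9.34 CPM at 1 day, 7.4 to 11 CPM at 3 days and 9.17 to 15.5 CPM at 12 weeks, with the 12 week median of 12.7 CPM between those of sham (15.5 CPM) and 1 day (8.85 CPM). Without 12 week replicate 3 the count of called members rose to 5, all lower than sham, with log2 fold changes of -0.27 to -0.43. In that setting 3341 genes were called over all genes, against 3334 with all libraries. The rule had held the 12 week mean near sham with replicate 3 included, and 22 members lay above the sham range in it. Leaving it out lowers the 12 week means of those members by construction, so nothing is read from the rise. The count of called members was 2 without sham replicate 3, where 3028 genes were called.

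Spread between libraries was larger at 12 weeks and 3 days than in sham for the members and for genes at large. The median SD of log2(CPM + 0.5) over the members was 0.26 in sham, 0.25 at 1 day, 0.37 at 3 days and 0.40 at 12 weeks. Over the 11567 genes it was 0.12, 0.14, 0.19 and 0.20. Of the 43 members, 26 had their largest SD in the 12 week group and 12 in the 3 day group, beside 48.0% and 36.1% of all 11567 genes. The biological coefficient of variation fitted by edgeR had a median of 0.25 over the members and 0.138 over all tested genes. Genes with a wide spread reach a group difference of 0.7 more readily, so the spread of the members was not independent of their choice.

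The members tended to be high or low together in a given library. The median over the 43 members of log2(CPM + 0.5) minus the sham mean was computed in each library. In sham it ran from -0.18 to 0.33, with the highest value in replicate 2. At 1 day it ran from -1.23 to -0.88, and the 6 libraries were close together. The 3 day libraries had -1.19, -1, -0.54, -0.94, -1.25 and -1.21 in replicates 1 to 6, so that replicate 3 stood nearest to sham. In that library all 43 members were above the mean of their group and 12 lay inside the sham range, whereas in the other 3 day libraries at most 3 members did. Among the 11567 genes 62.7% were above the group mean in it.

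The 12 week libraries had medians of -0.46, -0.19, 0.32, 0.02, -0.07 and -0.10 in replicates 1 to 6. In replicate 3, 22 members were above the highest sham library and 3 below the lowest. In replicate 1, 27 members were below the lowest sham library and 1 above the highest. In replicates 2, 4, 5 and 6 between 27 and 33 members lay inside the sham range. The medians over the 11567 genes were 0.08, 0.06, -0.17, -0.01, 0.13 and 0.03 in replicates 1 to 6. In each 12 week library this was on the other side of 0 from the members, so it did not set replicates 1 and 3 apart. Replicate 1 was also the shallowest of all libraries, with 15002476 counts, and replicate 3 had 33248851. The part of depth in these values was not tested.

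In replicate 3 of the 12 week group the members at ranks 24, 33 and 41 went the other way, each with its lowest 12 week value there and below its sham range. Rank 24 had 1.2 CPM in that library beside at least 1.75 CPM in sham, and rank 41 had 9.17 CPM beside at least 13.4 CPM. With group means subtracted, these 3 were the only members whose mean correlation with the other members over the 24 libraries was negative, at -0.09, -0.10 and -0.06 in order of rank. The 24 libraries include 12 week replicate 3, where these members were picked out, so the correlations in part restate those values. Rank 33 had 0.602 CPM there and 3.76 to 6.8 CPM in the other 12 week libraries, beside 2.35 to 5.73 CPM in sham, 1.15 to 4.06 CPM at 1 day and 0.418 to 3.53 CPM at 3 days. Its acute libraries overlapped with sham, with 2 inside the sham range at 1 day and 4 at 3 days. Its lowest library held 7 counts.

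**Figure D4:**
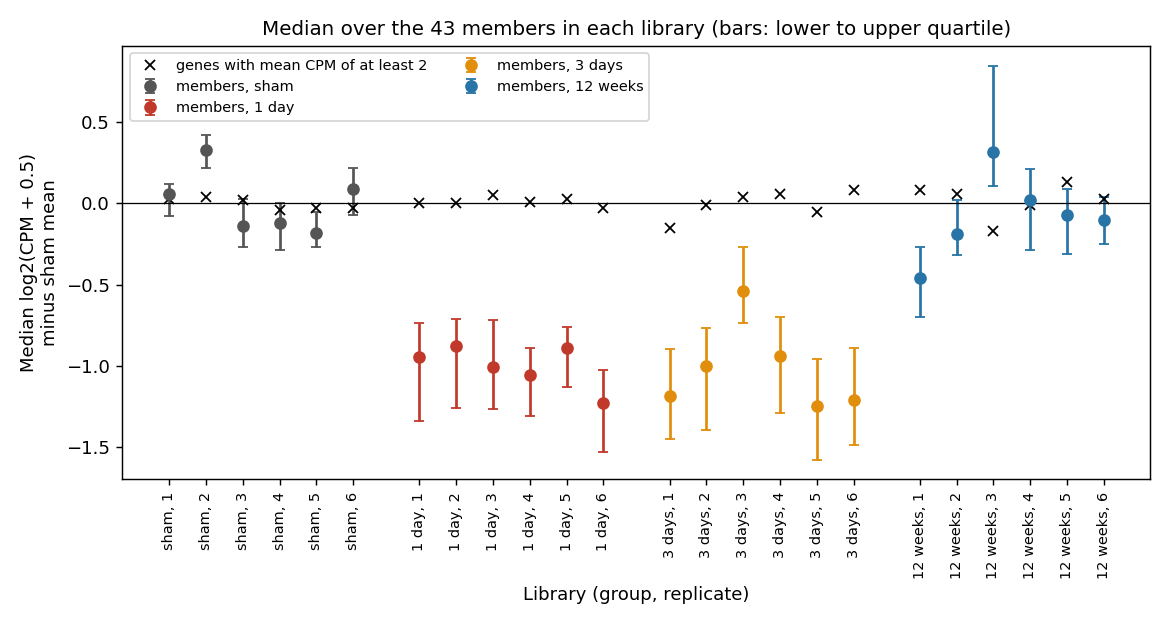
Median over the 43 members of log2(CPM + 0.5) minus the sham mean (vertical axis, points, with bars from the lower to the upper quartile) in each library (horizontal axis), and the same median over the 11567 genes with a mean of at least 2 CPM (crosses). The 1 day points lie between -1.23 and -0.88, 3 day replicate 3 stands at -0.54, and the 12 week points spread from -0.46 to 0.32.

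This shared movement was summarised over all pairs of members as a description, with no test, since the members were chosen in these libraries. With each group's mean subtracted, the median pairwise correlation over 24 libraries was r = 0.38 (rho = 0.34), and 89.9% of the 903 pairs were above 0. Over all pairs of the 11567 genes the median was r = 0.16 (rho = 0.13), with 69.1% above 0. Without 12 week replicates 1 and 3 the medians were r = 0.32 for the members and 0.13 for all genes. The genes share libraries, library depth and scaling, and the members also had a wider spread than genes at large. The part of these in the correlations was not tested, and members were not compared with genes of like spread.

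The comparisons that stay within a run of library numbers can be set side by side. Within the numbers 57 to 68, the 3 day group was below sham by the median of 0.95 given above. In this comparison 31 members did not overlap, beside 4.69% of the 11567 genes. Within 77 to 88, the 1 day minus 12 week difference ran from -1.81 to -0.44 with a median of -0.99, beside a median of -0.01 over the 11567 genes. In 26 members every 1 day library lay below every 12 week library, and this was true of 7.72% of the 11567 genes. Between 3 days and 12 weeks, which lie in different runs, 18 members did not overlap, beside 5.93% of genes. The choice of members fixed the direction and the least size of both within-run differences. These values and counts are therefore a description, and no support is drawn from them.

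Which genes belong to the set depended on single libraries more than their number did. Leaving out each of the 24 libraries in turn gave 39 to 50 genes, and 20 of the 43 members met the rule in all 24 repeats. The fewest members were kept without 12 week replicate 3, when 33 of the 43 remained among 40 genes. With group medians in place of means the rule again gave 43 genes, of which 30 were members.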

How the data were processed

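Total RNA of rat left ventricle was depleted of ribosomal RNA and made into strand-specific libraries, per the labels' protocols. The authors deposited raw counts per Ensembl gene ID for 24 libraries, in a table named as protein-coding. Library totals and CPM rest on the counts in that table. The submitters' processing notes name the build mRatBN7.2 with featureCounts 2.0.6, STAR 2.7.11a and FastQC 0.12.1. The annotation release, strand setting and treatment of multi-mapping reads in the counting were not stated in the sources used, so overlapping, antisense and near-identical genes may share reads. Identical lines that repeat an ID were used once.

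The members and the lists were chosen with earlier results of these data known. One gene ID named in the selection rule was left out. The rule for naming genes called for members with a symbol, and none had one. Ranks 1 and 2 are printed by ID for their size. The other members described singly were picked after their values were seen, for a level over 100 CPM or for their behaviour. The pathway lists, cell type markers and promoter motifs written for this work need symbols and were not run, and no sequence is printed.

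Tests used edgeR 4.0.16 in R 4.3.3 on all 24 libraries with a term per group, filterByExpr (15065 genes), TMM factors and the two-sided quasi-likelihood F test, adjusted by Benjamini-Hochberg over all tested genes and called under 0.05. Standard errors and 95% intervals were derived from each fold change with its F value. The alternatives were DESeq2 1.42.0, its size factors, no filter, a replicate block, only the groups compared, and each library left out in turn. The scripts were tested on simulated data.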

Additional observations from a re-analysis of the deposited data

Results flagged for a closer look

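Among the members described singly, 3 had a library that stood apart from the other 5 of its group by Dixon's ratio (the gap to the nearest library divided by the group's range, on the log2 scale, against the 95% critical value). ENSRNOG00000023257 had 613 CPM in 12 week replicate 3, with a ratio of 0.648. ENSRNOG00000014856 had 59.1 CPM in 1 day replicate 6, with a ratio of 0.64. The member at rank 33 had 0.602 CPM in 12 week replicate 3, with a ratio of 0.715, at the low end. Chance flags about 1 in 20 groups, and over all members and groups 10 of 172 were flagged. Of these 10, 5 were a high value in 12 week replicate 3 and 1 a low value there.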

How the results depend on the processing

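The number of genes meeting the rule was 40 with TMM-adjusted library sizes or DESeq2 size factors (all 40 among the 43), 41 with a pseudocount of 1, 32 with a minimum of 5 CPM, 51 with no minimum, 45 without 12 week replicates 1 and 3, and 47 without these, sham replicate 2 and 3 day replicate 3. The last pair of settings was chosen after seeing the data. Over the libraries left out in turn it was 39 to 50. The comparison of 3 days with 1 day called 817 genes with DESeq2 and 259 with only the 2 groups, against 413, and 170 (without 1 day replicate 5) to 613 (without 3 day replicate 5) with 1 library left out. It called 239 and 254 without 1 day replicates 1 and 4, and 259, 185 and 275 without 3 day replicates 2, 4 and 6. It called 0 members in every setting except without 3 day replicate 5 or 6, with 1 each (0 to 1). For 12 weeks against sham 1 member was called, 2 with DESeq2 (which called 3727 genes over all), and 1 to 5 with 1 library left out. Over all genes, leaving out 1 library gave 3077 to 3544 calls at 1 day, 2044 to 2725 at 3 days and 2727 to 3341 at 12 weeks against sham, and 41 to 43 and 35 to 39 members at the acute times. The causes of these changes were not tested. The labels do not say that a replicate number marks a shared rat, day or batch. Deviations of same-numbered libraries correlated at over 0.1 in at most 1 of 6 pairs per comparison. At most 2 of 6 libraries correlated best with their own number. These values cannot show that same-numbered libraries had nothing in common. With the number as a replicate block edgeR called 3420, 2406 and 3068 genes against sham in order of time and 298 between 3 days and 1 day, with 42, 39, 1 and 0 members. Depth limits the members of low level, of which 3 had fewer than 10 counts in a library.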
